A study of Homo sapiens with 2 samples.

Results

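CCND1, CCNE1, CDKN1A, E2F1, RB1 and CDH1 are 6 genes linked to the arginine methyltransferase PRMT5 through control of the cell cycle or of epithelial adhesion. They were taken by name, at fixed hg19 positions, and every PRMT5 peak within 10 kb of each was collected. Of the 2840 peaks in the list, 1 met this rule. It lay beside CCND1, and the other 5 genes had none. The peaks come from 1 chromatin immunoprecipitation library of the human breast cancer line MDA-MB-231, which has a mesenchymal character, grown without treatment in medium with serum, crosslinked with formaldehyde and precipitated with an antibody against PRMT5. The series also has 1 input library of the same untreated cells, taken without antibody, which was not analysed here. Each group has 1 library, so no value below has a replicate and none was tested. Peak lists carry no read depth, so the lack of a peak at a gene does not show that PRMT5 was missing there. A peak list does not measure expression, so the identity of the cells was not checked on marker genes.

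PRMT5 acts with its partner WDR77 and places symmetric dimethyl marks on arginines of histones, of splicing proteins and of other regulators. Several of these marks on histones H3 and H4 are described as repressive at promoters. The 6 genes reach PRMT5 by different routes in earlier work. CCNE1, CDH1 and the RB family have been described as genes that PRMT5 represses, CDH1 together with the factor SNAIL. E2F1 and p53, the main activator of CDKN1A, are known as proteins that PRMT5 methylates, and a kinase complex with cyclin D1, the product of CCND1, phosphorylates WDR77. The first kind of link concerns PRMT5 at the gene and the second its action on proteins, while for CCND1 a kinase acts on the partner of PRMT5.

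The promoters of E2F1, CCNE1 and CDKN1A are shown as start-site regions of genes in the set at which no PRMT5 peak was called. The nearest peak lay 325 kb or more from each. They come from RefSeq on build GRCh38.p14, 250 bases before to 50 bases after the start site, on the gene's own strand, and their coordinates cannot be set beside the hg19 positions used elsewhere. E2F1 is at chr20:33686336-33686635 on the minus strand, CCNE1 at chr19:29811741-29812040 on the plus strand and CDKN1A at chr6:36678464-36678763 on the plus strand. The capitals mark a match to the E2F motif, searched as TTTCGCGC or TTTGGCGC on both strands.
E2F1: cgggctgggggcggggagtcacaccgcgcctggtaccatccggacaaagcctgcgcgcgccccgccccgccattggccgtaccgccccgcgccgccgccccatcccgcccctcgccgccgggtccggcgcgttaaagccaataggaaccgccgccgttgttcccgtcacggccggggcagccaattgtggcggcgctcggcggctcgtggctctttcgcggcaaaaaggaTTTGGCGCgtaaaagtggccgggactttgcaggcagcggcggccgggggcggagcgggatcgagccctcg
CCNE1: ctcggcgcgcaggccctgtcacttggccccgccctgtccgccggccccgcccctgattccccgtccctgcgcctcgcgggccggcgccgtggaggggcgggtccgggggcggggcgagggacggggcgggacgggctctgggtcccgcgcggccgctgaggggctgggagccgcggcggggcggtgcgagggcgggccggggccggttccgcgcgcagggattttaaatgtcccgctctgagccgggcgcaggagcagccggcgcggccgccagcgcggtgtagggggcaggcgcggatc
CDKN1A: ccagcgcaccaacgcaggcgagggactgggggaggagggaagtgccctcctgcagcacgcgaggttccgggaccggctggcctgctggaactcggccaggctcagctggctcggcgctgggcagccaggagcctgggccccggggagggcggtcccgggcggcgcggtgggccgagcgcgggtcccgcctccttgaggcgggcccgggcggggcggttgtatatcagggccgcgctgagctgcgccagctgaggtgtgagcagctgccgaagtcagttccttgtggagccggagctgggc

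Of the 3 printed promoters, an exact match to either searched form of the E2F motif was found in that of E2F1 alone. This 1 match began 20 bases before the start site. Sites that differ from both forms by a base were not counted, so the search does not show that the other promoters lack E2F sites. The same search found the motif in 1.14% of 34796 distinct promoter sequences of the table (396). All 3 were rich in G and C, at 73.3% for E2F1, 81.0% for CCNE1 and 74.3% for CDKN1A. The median over the table was 58.7% and the upper quartile 68.0%. They held 46, 47 and 29 CpG dinucleotides in that order. The median promoter held 14 and the upper quartile was 28, so the count of CDKN1A was close to that quartile. The GC box GGGCGG occurred 6 times in the E2F1 promoter, 7 times in that of CCNE1 and 4 times in that of CDKN1A, counting both strands, and at least once in 44.9% of the table. The motif CCAAT occurred 3 times in the E2F1 promoter and at least once in 34.6% of the table, and was not found in the windows of CCNE1 and CDKN1A. How many promoters of the table held either motif as often as these was not counted. These are matches of letters and do not show binding. The CDKN1A entry starts 2251 bases inside the RefSeq gene, so its start site is not the 5′ end from which distances were measured here. Which of these starts is the main one was not determined. The RB1 entry starts 172699 bases inside that gene, away from its 5′ end, and is not printed. CCND1 and CDH1 were not matched.

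CCND1 encodes cyclin D1, which activates CDK4 and CDK6 to drive entry into the cell cycle. It was the 1 gene of the 6 with a peak within 10 kb, and that peak lay past its end and not at its promoter. The gene spans 69455873 to 69469242 on chromosome 11, band q13.3, on the plus strand. The peak spanned 69469603 to 69470193, which began 361 bases past the end of the gene and 13.7 kb from its start site. It overlapped neither the promoter nor the body of CCND1. RefSeq gives CCND1, on another build, a length 51 bases shorter than the interval used here, and where its end would fall on hg19 was not determined. In the RefSeq order of protein-coding genes CCND1 lies between MYEOV and LTO1, and whether the peak falls in a transcript other than CCND1 was not determined.

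The CCND1 peak was wide for this list and of ordinary strength. Its width was 591 bp, against a median of 210 bp, and 4.93% of the 2840 peaks were wider. Its score in the authors' file, read as a −log10 q-value, was 10.5. The median score of the list was 7.80 and the upper quartile 12.4, and 31.7% of peaks scored higher, which put it at rank 902. Set beside peaks of like width, it was on the low side. Among the 55 other peaks within 10% of its width scores had a median of 14.1 and quartiles of 9.35 and 22.5, and 38 of them scored higher. Of the 140 other peaks outside the mitochondrial sequence that were at least as wide, 116 scored higher.

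**Figure D1:**
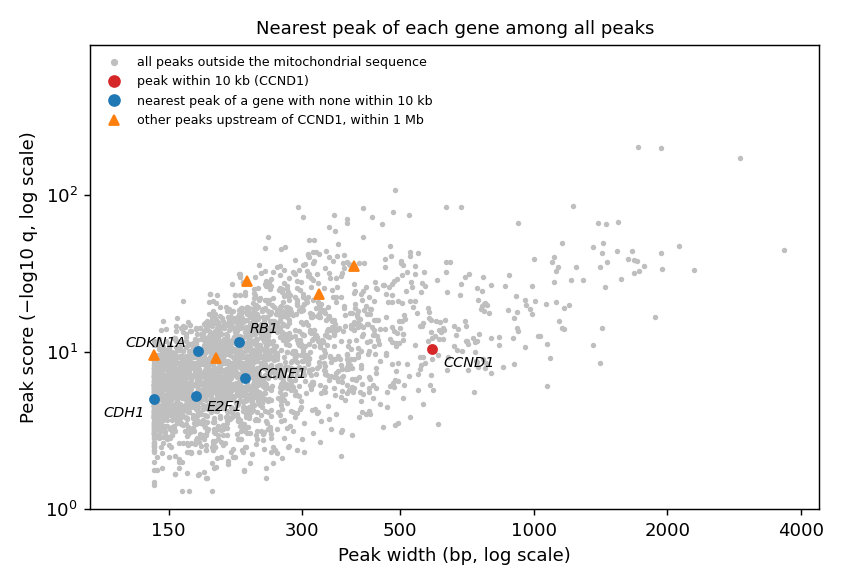
Score (−log10 q, log scale) against width (bp, log scale) of each peak outside the mitochondrial sequence (grey), with the peak within 10 kb of CCND1 in red, the nearest peak of each other gene in blue and the other peaks upstream of CCND1 within 1 Mb as orange triangles. The CCND1 peak, at 591 bp, lies far to the right of the blue points, which are 139 to 223 bp wide, while its score of 10.5 is close to the highest of them, 11.6.

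The strongest peaks around CCND1 lay far upstream of it. Within 1 Mb of the gene there were 7 peaks, 5 of them upstream of the start site, the one just past the gene's end and 1 farther on. The upstream peak nearest to the gene spanned 69312061 to 69312388, lay 143 kb from the start site and scored 23.2, at rank 206. The highest score of the 7 was 35.2, at rank 85, for a peak at 69064750 to 69065143, which was 391 kb upstream. Its neighbour at 69069153 to 69069377 scored 28.1, at rank 142. These 3 upstream peaks all scored above the upper quartile of the list, whereas the peak beside the gene did not. The remaining upstream peaks, 288 and 366 kb from the start site, scored 9.15 and 9.63, and the far downstream peak, 394 kb past the gene's end, scored 7.56. Which gene, if any, the upstream peaks belong to was not determined, since hg19 positions of other genes were not used here.

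CCND1 had more peaks within 1 Mb than any of the other 5 genes, and few stretches of that length held as many. When chromosomes 1 to 22 and X were cut into tiles as long as CCND1 with 1 Mb on each side, 4.41% of 1496 tiles held 7 or more peaks, and 57.1% held at least 1. At the lengths of the other genes the share with at least 1 was 56.9% for CCNE1, which had 0 peaks within 1 Mb, 57.2% for CDKN1A, 57.3% for E2F1 and 57.7% for CDH1, which had 1 each, and 60.1% for RB1, which had 2. For RB1, 37.7% of tiles held 2 or more. For CCND1, with tiles that touch a 1 Mb window of 10 or more peaks left out, 2.81% of 1459 tiles held as many. None of the 7 peaks lay in such a window. The tiles left out were picked by their peak numbers, so a lower share was to be expected from that choice alone. The comparison of CCND1 with tiles was chosen after its peaks were seen, and CCND1 had the most peaks of the 6 genes. Tiles include stretches without genes and unassembled sequence, and a share for chromosome 11 alone was not computed at this length.

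**Figure D2:**
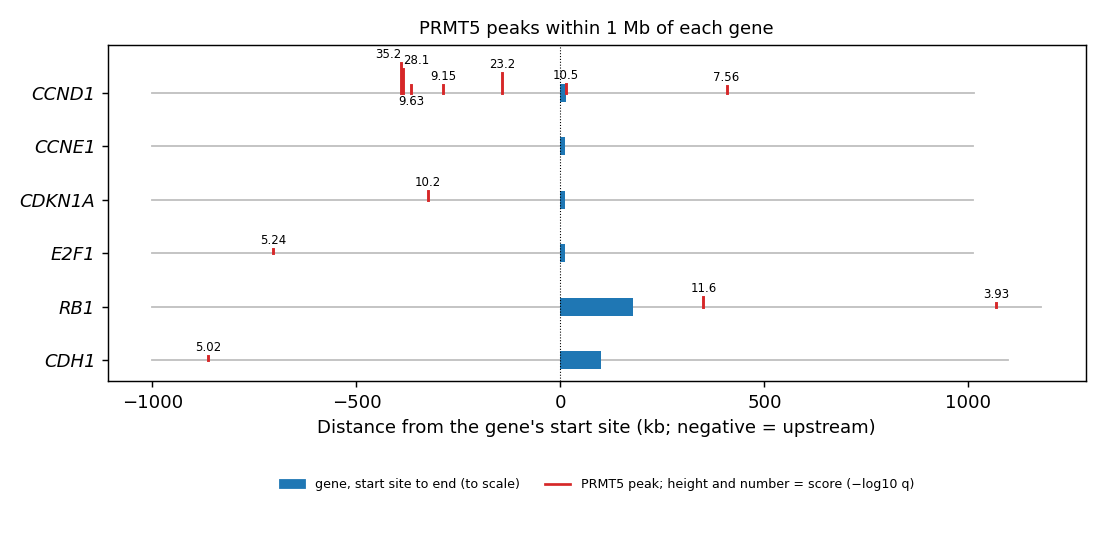
PRMT5 peaks within 1 Mb of each gene, by distance of the peak's nearer edge from the gene's start site (kb, negative upstream, in the direction of transcription); blue bars are the genes to scale, and the height of each red line and the number at it are the peak's score (−log10 q). CCND1 has 7 peaks, of which 1 adjoins the gene, CCNE1 has none, and the other genes have 1 or 2, all outside the gene.

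CDKN1A encodes p21, the inhibitor of cyclin-dependent kinases that halts the cycle after p53 is activated. No peak lay within 10 kb of it. The gene spans 36644237 to 36655116 on chromosome 6, band p21.2, on the plus strand, and the nearest peak was upstream, at 36318662 to 36318836, 325 kb from the start site. That peak was 175 bp wide and scored 10.2, above the median of the list and close to the score of the CCND1 peak. On the other side the list held no peak until 40918820, which is 4.26 Mb past the end of the gene. CDKN1A thus lay near one edge of a peak-free stretch of 4.60 Mb.

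CCNE1 encodes cyclin E1, which activates CDK2 at the start of DNA synthesis. It was the gene farthest from any peak. It spans 30302901 to 30315215 on chromosome 19, band q12, on the plus strand, and there was no peak within 1 Mb of it, as in 43.1% of 1497 tiles of that length. The nearest peak lay 2.41 Mb upstream, at 27890079 to 27890301, was 223 bp wide and scored 6.85. It lies in band q11, which the hg19 band table marks as centromeric, in a 1 Mb window (27 to 28 Mb) with 19 peaks. With peaks in such dense windows left out, the nearest one was past the end of the gene, at 32864064 to 32864289, which is 2.56 Mb from the start site, with a score of 6.63. Both scores are below the median of the list.

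E2F1 encodes the transcription factor that turns on genes of DNA replication once RB1 releases it. No peak lay within 10 kb of it. It spans 32263292 to 32274210 on chromosome 20, band q11.22, on the minus strand, so its start site is at 32274210. The nearest peak was 704 kb upstream of the start site, at 32978705 to 32978877, 173 bp wide and with a score of 5.24, which 76.8% of peaks exceeded. On the other side the nearest peak lay 1.20 Mb past the gene's end, at 31063163 to 31063387, and was stronger, with a score of 12.6.

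RB1 encodes the retinoblastoma protein, which holds E2F1 inactive until cyclin D and cyclin E kinases phosphorylate it. It is the longest of the 6 genes, at 178 kb, and no peak lay in it or within 10 kb of it. It spans 48877883 to 49056026 on chromosome 13, band q14.2, on the plus strand. The nearest peak lay 172 kb past its end, at 49228321 to 49228536, was 216 bp wide and scored 11.6, the highest score among the nearest peaks of the 6 genes. Its start site was 350 kb from that peak. A further peak, 890 kb past the end, scored 3.93, and upstream of RB1 the nearest peak was 3.10 Mb away, with a score of 16.8.

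CDH1 encodes E-cadherin, the adhesion protein of epithelial cells, which mesenchymal breast cancer lines such as MDA-MB-231 are known to lack. No peak lay in its 98.2 kb or within 10 kb of it. It spans 68771195 to 68869444 on chromosome 16, band q22.1, on the plus strand. The nearest peak lay 864 kb upstream of the start site, at 67906887 to 67907025. It was 139 bp wide, the smallest width among the 6 nearest peaks, and scored 5.02, the lowest score among them. Past the end of the gene the nearest peak was 2.02 Mb away, at 70885317 to 70885462, and scored 6.16. Both were among the weaker peaks, since 78.5% and 66.1% of the list scored higher.

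The count of 1 gene in 6 was read against how often a stretch of the same length holds a peak. Of tiles as long as each gene with 10 kb on each side, over chromosomes 1 to 22 and X, 2.16% held a peak at the length of CCND1 (1968 of 90976), 2.11% at that of CCNE1, 2.02% at that of CDKN1A, 2.03% at that of E2F1, 6.55% at that of CDH1 and 10.3% at that of RB1. On the gene's own chromosome alone, 3.39% of tiles held a peak at the length of E2F1 and 5.68% at that of RB1. Such tiles include stretches without genes and unassembled sequence, so they are a background of length and not of genes. The share of all genes with a peak within 10 kb was not computed, as hg19 positions of all genes were not used here. With 1 peak at 6 genes, nothing can be said about these genes as a group.

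The start sites of the 6 genes were spread over much of the range of distances found for the bases of the genome. The median base of chromosomes 1 to 22 and X was 813 kb from the nearest peak, with quartiles of 299 kb and 1.82 Mb. For CCND1, 1.82% of bases were as close to a peak as its start site or closer. The share was 26.6% for CDKN1A, 28.2% for RB1, 45.8% for E2F1, 51.9% for CDH1 and 82.2% for CCNE1. By this measure the start sites of 4 genes were closer than the median base and those of 2 farther. Counted over the bases of the gene's own chromosome alone, the share was 2.31% for CCND1, 15.3% for RB1, 32.9% for CDKN1A, 51.4% for CDH1, 62.6% for E2F1 and 96.5% for CCNE1. E2F1 was then farther than the median base, which made the split 3 and 3, and the share for RB1 was 15.3% in place of 28.2%. Both sets of bases include unassembled sequence, where no peak can be called, and its effect on these shares was not determined. The side of the median on which E2F1 and CDH1 fall, at 45.8% and 51.9% over all these chromosomes, is therefore not firm.

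**Figure D3:**
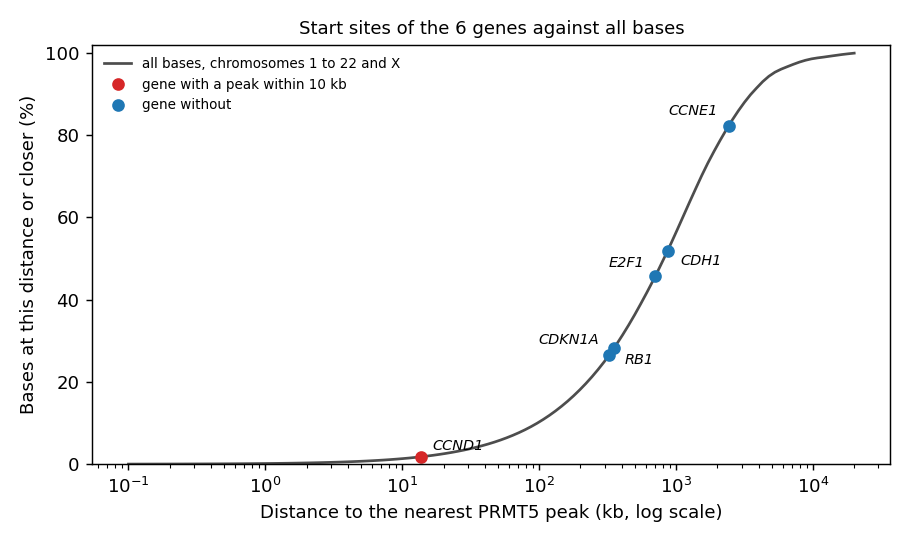
Share of bases of chromosomes 1 to 22 and X (%) that lie at a given distance from the nearest PRMT5 peak or closer (kb, log scale), with the start site of each gene marked, in red where a peak lies within 10 kb of the gene and in blue where none does. CCND1 sits at the low end of the curve, at 1.82%, and the other 5 are spread from 26.6% to 82.2%. Unassembled sequence is counted among the bases.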

How the data were processed

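The authors deposited 1 peak list, from the PRMT5 library, with a chromosome, start, end, name and score for each peak. The deposited score was taken as −log10 of the caller's q-value, inferred from the values: the file has no header, and no score is below 1.30279, where a q of 0.05 gives 1.30103. Per the submitters' processing notes the tools were CASAVA 1.4, Bowtie2 and MACS2 and the build hg19, with no settings. The use of the input as control and the handling of duplicate and multiply aligned reads decide what passes as a peak, and these choices are not given in the sources used. The 6 genes, their hg19 positions and the 10 kb distance were chosen with earlier results of these data known.

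Coordinates are counted from 1. The distance between a gene and a peak is the difference between their nearest edges, upstream and downstream follow the gene's strand, and the start site is the 5′ end of the gene's interval. The genes named are these 6, each with every peak within 10 kb and, where there is none, the nearest on either side. A planned list of further cell cycle and adhesion genes needs hg19 positions and was not used here. RefSeq lengths (GRCh38.p14) matched 6 of 6 genes and differed from the intervals used by at most 51 bases. Chromosome lengths and bands came from circlize 0.4.16. The functions for tiles, for the share of bases within a distance of a peak and for peak-free stretches were tested on simulated peaks against base-by-base counting. The distances between genes and peaks were not part of that test. Scripts ran in Python 3.11.15 with scipy 1.17.1, pandas 2.3.3 and numpy 2.4.6, and figures were drawn with matplotlib 3.10.9. No test between samples was made.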

Additional observations from a re-analysis of the deposited data

How the results depend on the processing

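The number of genes with a peak, 1, and the number of peaks at them, 1, stayed the same at 50 kb, and the number of genes also at 100 kb and in the highest-scoring 50% of peaks (1425 peaks). Merging peaks within 1 kb left 1 peak. When a peak had to overlap the gene, both counts were 0, and in the highest-scoring 25% (710 peaks) the number of genes was 0, as the CCND1 peak lies past the gene and at rank 902. In the highest-scoring 50% of peaks the distance from the start site to the nearest peak was 2.53 Mb for CCNE1, 1.21 Mb for E2F1 and 1.81 Mb for CDH1. In the highest-scoring 25% it was 0.143 Mb for CCND1, 2.56 Mb for CCNE1, 1.07 Mb for CDKN1A, 1.21 Mb for E2F1, 2.37 Mb for RB1 and 6.51 Mb for CDH1. Leaving out peaks can only lengthen such a distance or keep it. Leaving out peaks in windows of 10 or more, chosen after seeing the data, moved the distance of CCNE1 to 2.56 Mb and that of no other gene.

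Without tiles in windows of 10 or more peaks, the background share of tiles with a peak was 2.06% at the length of CCND1, 2.01% at that of CCNE1, 1.93% at that of CDKN1A and 1.94% at that of E2F1. On the gene's own chromosome alone it was 2.82% for CCND1, 2.63% for CDKN1A, 3.39% for E2F1, 5.68% for RB1 and 5.37% for CDH1. What the depth limits cannot be given without read counts. No paired analysis was possible because neither group has a second library.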

Other observations

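Some of the strongest peaks of the list lay on the same chromosome arms as these genes, more than 1 Mb away. On chromosome 20 the third peak upstream of E2F1, at 33893542 to 33893953 and 1.62 Mb from the start site, scored 82.7 and ranked 9 of 2840. On chromosome 19 the third peak past CCNE1, at 36066425 to 36066838 and 5.75 Mb from the gene, scored 36.8 and ranked 75. On chromosome 13 the second peak upstream of RB1, at 45763716 to 45763988 and 3.11 Mb away, scored 27.6 and ranked 150. These peaks were chosen after their values were seen, and the genes at them were not determined. How often a peak of such rank lies on the same arm as a gene was not counted. The 3 peaks therefore cannot be tied to E2F1, CCNE1 or RB1.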
